A study of Mus musculus with 16 samples.

Results

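The Fc gamma receptor genes of the mouse are the subject here, together with the signalling chain that the activating receptors share and the neonatal Fc receptor. The 6 genes, Fcgr1, Fcgr3, Fcgr4, Fcgr2b, Fcer1g and Fcgrt, were taken by gene symbol, and all 6 were found among the 55487 genes of the deposited table. Bulk RNA-Seq had been run on total RNA, depleted of ribosomal RNA, from the cortex of 16 WT mice of the C57Bl6 strain, males aged 2 months. Each mouse had received i.p. injections of LPS (2 mg/kg) or of PBS on 2 days in a row, either at ZT1 or at ZT13, and the tissue was taken on day 3, with the first injection on day 1. The groups were ZT1 PBS (n = 3), ZT1 LPS (n = 5), ZT13 PBS (n = 3) and ZT13 LPS (n = 5). Values are CPM, the reads on a gene for each 1000000 reads on all genes of that sample, and the samples held 20251840 to 29112758 reads on genes, with a median of 22459623.

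Fc gamma receptors sit on myeloid cells and bind the constant region of IgG, so that cells take up or respond to whatever the antibody has coated. The activating receptors pass their signal through the paired tyrosine motif (ITAM) of the Fc receptor gamma chain, the product of Fcer1g, while the inhibitory receptor carries a tyrosine motif of its own (ITIM) that recruits phosphatases. In the brain these receptors are found mainly on microglia and on macrophages of the borders and vessels, and blood neutrophils and monocytes carry them as well.

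The treatment field of the labels contradicted the sample title in 12 of 16 samples, and the titles were used. Gfap, an astrocyte gene that rises with gliosis, was between 110.5 and 122.8 CPM in the 6 samples titled PBS and between 572.1 and 1134 CPM in the 10 titled LPS. Lcn2, an acute-phase gene, was at 0.0421 to 0.197 CPM in the former and at 107 to 418 CPM in the latter, so both genes separated the samples by title. All 6 genes of a list of cortical neuron markers were present in each sample, with a summed level of 4100 to 4779 CPM and Syt1 as the most abundant of them by the mean over all samples. Microglial markers were present as well, and markers of B and plasma cells and of mast cells and basophils were almost absent, with sums of at most 1.68 and 0.266 CPM in any sample.

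Fcgr1 encodes the high-affinity activating receptor, which can bind monomeric IgG. In the ZT1 PBS mice its level was 1.13, 2.27 and 1.56 CPM, and in the ZT1 LPS mice 9.28, 5.73, 9.45, 9.28 and 8.38 CPM. In the ZT13 PBS mice it was 1.63, 1.76 and 1.25 CPM, and in the ZT13 LPS mice 9.17, 8.51, 8.89, 9.44 and 6.99 CPM. All LPS mice stood above all PBS mice at both times, and mouse 2 of ZT1 LPS and mouse 5 of ZT13 LPS were the lowest LPS mice of their groups. Fcgr1 rose with LPS by 2.06 on the log2 scale at ZT1 (SE 0.193, limma adjusted p = 3.7e-05) and by 2.15 at ZT13 (SE 0.126, adjusted p = 2.2e-08). As folds of CPM plus a pseudocount these were 4.18 (95% interval 3.12 to 5.61) and 4.45 (3.68 to 5.36). The pseudocount, a constant added before the log, lowers such folds. The plain ratio of mean CPM was 5.092 at ZT1 and 5.554 at ZT13.

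Fcgr3 encodes a low-affinity activating receptor that binds IgG in immune complexes. Its level was 4.43, 5.98 and 7.32 CPM in the ZT1 PBS mice and 24.7, 17.1, 17.5, 23.7 and 21.6 CPM in the ZT1 LPS mice. It was 6.01, 6.10 and 5.55 CPM in the ZT13 PBS mice and 24.0, 21.4, 23.6, 21.4 and 26.2 CPM in the ZT13 LPS mice. No LPS mouse came within the PBS range at either time. Fcgr3 rose by 1.75 on the log2 scale at ZT1 (SE 0.159, limma adjusted p = 3.1e-05) and by 1.90 at ZT13 (SE 0.080, adjusted p = 1.1e-09), the smallest rise of the members called at both times.

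Fcgr4 encodes another activating receptor of mouse myeloid cells, with a preference for some IgG subclasses. In PBS mice it was close to undetected, with 3, 1 and 2 reads in the ZT1 mice (0.148, 0.0494 and 0.0842 CPM) and 1, 2 and 0 reads in the ZT13 mice (0.0380, 0.0925 and 0 CPM). In the ZT1 LPS mice it was 6.44, 2.91, 4.98, 5.85 and 2.95 CPM, and in the ZT13 LPS mice 6.29, 6.06, 9.31, 10.04 and 4.39 CPM. The gene was thus detected clearly with LPS alone, and mice 2 and 5 of ZT1 LPS were the lowest LPS mice. Over the pooled reads the LPS to PBS ratio was 50.3 at ZT1 (6 reads against 580, exact 95% interval 23 to 138) and 172 at ZT13 (3 reads against 868, 58.6 to 834). These intervals cover counting error only. The limma log2 fold changes were 3.05 (SE 0.246) and 3.78 (SE 0.220) with a pseudocount of 0.5. Their size depended on that pseudocount, and they were 4.56 and 5.66 with 0.1, and 2.31 and 2.93 with 1. Fcgr4 passed the filter for testing, 1 CPM or more in at least 3 samples, through the LPS mice alone, so it is kept out of the counts of members below and no p is given for its rise.

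Fcgr2b encodes the inhibitory receptor, the member of the family that dampens the others when they are engaged together. Its level was 1.79, 1.98 and 1.90 CPM in the ZT1 PBS mice and 15.6, 8.88, 8.46, 15.3 and 8.89 CPM in the ZT1 LPS mice. It was 2.23, 2.23 and 1.80 CPM in the ZT13 PBS mice and 14.3, 18.1, 16.1, 17.2 and 13.2 CPM in the ZT13 LPS mice. LPS and PBS mice did not overlap, and the ZT1 LPS mice fell into a higher pair, mice 1 and 4, and a lower trio that stood below every ZT13 LPS mouse. Fcgr2b rose by 2.27 on the log2 scale at ZT1 (SE 0.206, limma adjusted p = 3.1e-05) and by 2.65 at ZT13 (SE 0.113, adjusted p = 1.2e-09). As folds of CPM plus the pseudocount these were 4.82 (95% interval 3.52 to 6.59) and 6.28 (5.30 to 7.43). The plain ratio of mean CPM was higher, 6.057 at ZT1 and 7.565 at ZT13.

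Fcer1g encodes the gamma chain, without which Fcgr1, Fcgr3 and Fcgr4 are neither assembled well at the surface nor able to signal. Its level was 3.55, 3.36 and 2.95 CPM in the ZT1 PBS mice and 26.5, 11.4, 19.7, 25.8 and 14.1 CPM in the ZT1 LPS mice. It was 2.51, 2.68 and 2.91 CPM in the ZT13 PBS mice and 25.7, 25.0, 30.1, 33.0 and 21.3 CPM in the ZT13 LPS mice. Every LPS mouse was above every PBS mouse, and the ZT1 LPS mice were spread more widely than the ZT13 LPS mice, with mice 2 and 5 at the low end. Fcer1g rose by 2.33 on the log2 scale at ZT1 (SE 0.239, limma adjusted p = 7.9e-05) and by 3.09 at ZT13 (SE 0.119, adjusted p = 5e-10). As folds of CPM plus the pseudocount these were 5.04 (95% interval 3.50 to 7.25) and 8.52 (7.12 to 10.2). The plain ratio of mean CPM was higher, 5.936 at ZT1 and 10.01 at ZT13.

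Fcgrt encodes the neonatal Fc receptor, a relative of MHC class I molecules that binds IgG and albumin inside cells and returns them to the cell surface. Its level was 9.76, 11.8 and 8.97 CPM in the ZT1 PBS mice and 14.9, 8.86, 13.3, 14.8 and 13.4 CPM in the ZT1 LPS mice. It was 11.5, 9.57 and 11.2 CPM in the ZT13 PBS mice and 13.3, 13.02, 10.9, 12.2 and 11.3 CPM in the ZT13 LPS mice. At ZT1, mouse 2 of the LPS group was below all PBS mice and the other LPS mice were above them, and at ZT13 mice 3 and 5 of the LPS group lay within the PBS range. The log2 difference was 0.33 at ZT1 (SE 0.155, limma adjusted p = 0.18) and 0.17 at ZT13 (SE 0.089, adjusted p = 0.18), and neither was called. Without mouse 2 the ZT1 difference was 0.46 and was called (adjusted p = 0.0087). Over the alternatives that left out 1 mouse the adjusted p ranged from 0.0087 to 0.44, and over the others from 0.034 to 0.43.

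Of the 5 members with 1 CPM or more in every sample, 4 were called higher with LPS at ZT1, where 11.1% of the 18859 genes tested were called higher and 5.15% lower. At ZT13 the number was also 4 of 5, beside 19.2% of genes called higher and 9.40% lower. The genes were Fcgr1, Fcgr3, Fcgr2b and Fcer1g at both times. Over all genes, the 3061 calls at ZT1 became 1605 to 4097 over the alternatives with all mice and 1767 to 3758 with 1 mouse left out. A two-sided exact permutation test of each gene gave p = 0.036 for Fcgr1, Fcgr2b, Fcgr3 and Fcer1g in both comparisons, the smallest value that 3 mice against 5 allow, and 0.14 and 0.18 for Fcgrt at ZT1 and ZT13. That smallest value is reached whenever LPS and PBS mice do not overlap. The share of all genes separated in this way was not counted, so the exact p is not taken as evidence beyond the calls. Ranked by log2 fold change among all genes tested, Fcer1g was at place 82 at ZT1 and 69 at ZT13, and Fcgr2b at 92 and 115. Fcgr1 was at 125 and 217, Fcgr3 at 197 and 289, and Fcgrt at 2357 and 5476. Bulk samples cannot tell more cells of a type from more RNA per cell, and the marker levels given further on were read with that limit.

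**Figure D1:**
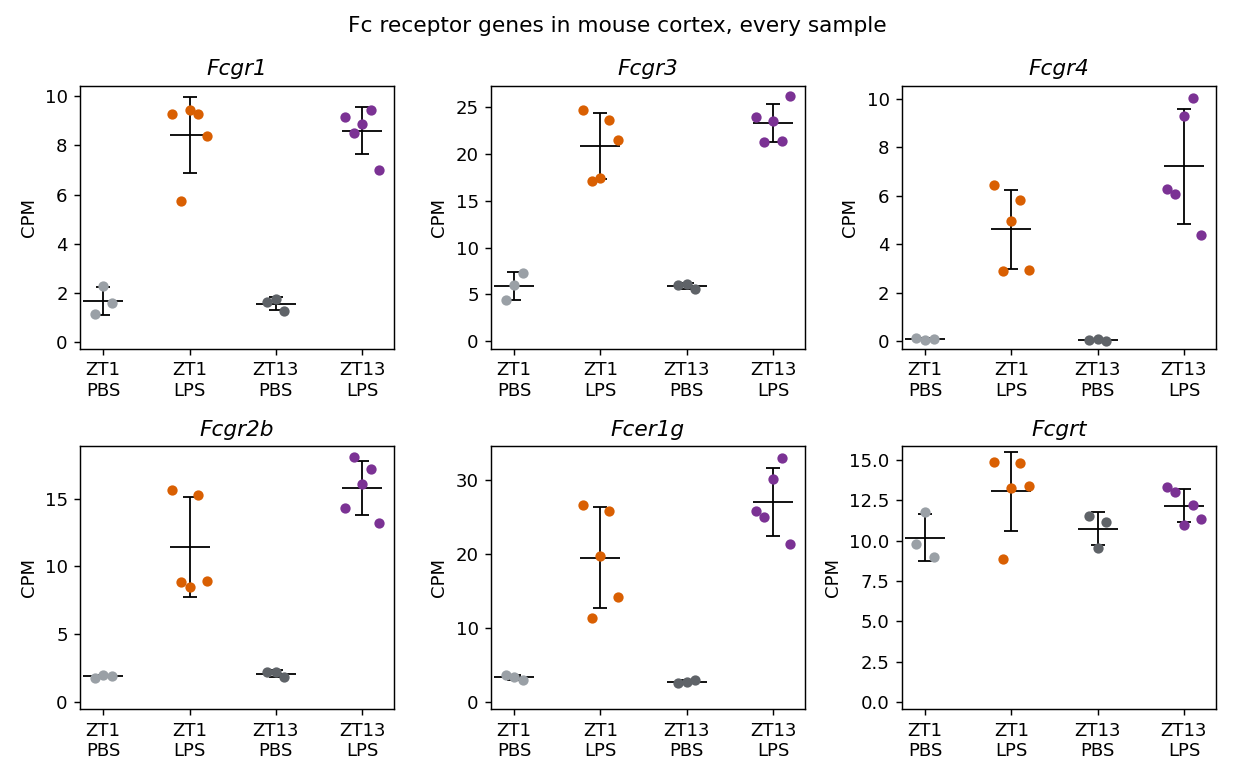
CPM of Fcgr1, Fcgr3, Fcgr4, Fcgr2b, Fcer1g and Fcgrt in each of the 16 mice, with the mean and SD of each group (n = 3 for PBS and n = 5 for LPS). The Fcgrt panel shows overlapping groups with the lowest ZT1 LPS mouse at 8.86 CPM.

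Levels of different genes were compared per kilobase of exon, as the union of all annotated exons in GENCODE M21. In PBS mice Fcgrt had the highest level of the 6, at 4.84 (SD 0.70) CPM per kb at ZT1 and 5.11 (SD 0.49) at ZT13. Fcer1g was at 3.76 (SD 0.35) and 3.09 (SD 0.23) and Fcgr3 at 3.40 (SD 0.83) and 3.39 (SD 0.17), and which of these came next differed between the times. Fcgr1 was at 0.639 (SD 0.22) and 0.598 (SD 0.10), and Fcgr2b at 0.326 (SD 0.016) and 0.360 (SD 0.042). Fcgr4 was the lowest at 0.0747 and 0.0346.

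With LPS the order changed. Fcer1g was at 22.3 (SD 7.8) CPM per kb at ZT1 and 30.9 (SD 5.2) at ZT13, Fcgr3 at 12 (SD 2.0) and 13.4 (SD 1.2), and Fcgrt at 6.21 (SD 1.2) and 5.79 (SD 0.49). Fcgr4, the lowest in PBS mice, reached 3.68 (SD 1.3) and 5.75 (SD 1.9), which at ZT13 was level with Fcgrt within the spread. Fcgr1 was at 3.25 (SD 0.60) and 3.32 (SD 0.37), and Fcgr2b at 1.97 (SD 0.64) and 2.72 (SD 0.34). The place of Fcgr2b depends on the length used. With its longest protein-coding transcript of 3544 bases in place of 5790 exon bases, its level with LPS was 3.23 (SD 1.04) and 4.45 (SD 0.564) CPM per kb, level with Fcgr1 at ZT1 and above it at ZT13.

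The balance of activating and inhibitory receptors was described by the log2 ratio of the summed CPM of Fcgr1, Fcgr3 and Fcgr4 to the CPM of Fcgr2b, a quantity to be compared between groups and not as a level of one gene against another. The ratio was 1.68, 2.07 and 2.24 in the ZT1 PBS mice and 1.37, 1.53, 1.91, 1.34 and 1.89 in the ZT1 LPS mice. It was 1.79, 1.83 and 1.92 in the ZT13 PBS mice and 1.47, 0.99, 1.38, 1.25 and 1.51 in the ZT13 LPS mice. The groups overlapped at ZT1, and at ZT13 each LPS mouse was below each PBS mouse. Group means were 2.00 (SD 0.288) and 1.61 (SD 0.276) at ZT1 and 1.85 (SD 0.066) and 1.32 (SD 0.207) at ZT13, for PBS and LPS. With Fcgr3 alone over Fcgr2b the means were 1.62 and 0.91 at ZT1 and 1.502 and 0.57 at ZT13. Each LPS mouse was then below each PBS mouse at ZT1 too, though narrowly, at 1.278 against 1.309 for the nearest. How reads that fit both Fcgr2b and Fcgr3 were divided is not stated, which bears on this ratio. With Fcgr4 alone over Fcgr2b the means at ZT1 went the other way, -4.471 for PBS and -1.327 for LPS. That PBS value rests on 3 reads or fewer of Fcgr4 in each mouse. The ratio was a description, and its difference between groups was not tested.

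The comparison of ZT13 LPS with ZT1 LPS asks whether TOD changes the level reached with LPS. None of the 5 members with 1 CPM or more in every sample was called, and 0.0212% of all genes tested were, 4 genes in limma, with 1998 genes at an unadjusted p under 0.05. That number of genes was not stable, and went from 0 to 225 over the alternatives with all mice and from 0 to 345 with 1 mouse left out. Fcgr2b had a log2 difference of 0.49 (SE 0.170, limma p = 0.012, adjusted p = 0.3, exact permutation p = 0.071) and Fcer1g one of 0.52 (SE 0.203, limma p = 0.024, adjusted p = 0.37, exact permutation p = 0.087). For Fcgr4, which was not called either, the difference was 0.60 (SE 0.241, limma p = 0.027, adjusted p = 0.39, exact permutation p = 0.1). With 5 mice against 5 the smallest exact p is 0.0079. Fcgr3 differed by 0.17 (95% interval -0.05 to 0.39), Fcgr1 by 0.04 (-0.23 to 0.32) and Fcgrt by -0.08 (-0.34 to 0.18). The difference of Fcgr1 changed sign with quantile normalization, where it was -0.0049.

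In PBS mice none of the same 5 genes was called between ZT13 and ZT1, beside 0.520% of all genes, 98 in limma, with 2543 at an unadjusted p under 0.05. The 98 became 3 to 199 over the alternatives with all mice and 12 to 87 with 1 mouse left out. Fcer1g had a log2 difference of -0.24 (SE 0.132, adjusted p = 0.48), with an exact permutation p of 0.1, the smallest that 3 mice against 3 allow. Fcgr4 was at or under the floor of 3 reads in each of these mice, and no fold is given.

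The TOD by treatment interaction, the LPS response at ZT13 less that at ZT1, was tested on all 16 samples. It was called for 30 genes or 0.159% in limma, with 1745 at an unadjusted p under 0.05, and for none of the 5 members. The 30 became 11 to 124 over the alternatives with all mice and 7 to 104 with 1 mouse left out. Fcer1g had the largest value among these 5, 0.76 on the log2 scale (95% interval 0.14 to 1.38, limma adjusted p = 0.4), followed by Fcgr2b with 0.38 (-0.15 to 0.91, adjusted p = 0.71). Fcgr3 stood at 0.15 (-0.25 to 0.54), Fcgr1 at 0.09 (-0.42 to 0.60) and Fcgrt at -0.16 (-0.56 to 0.24). For Fcgr4 no interaction is given, for the same reason as in PBS mice. A larger LPS response at ZT13 than at ZT1 was therefore not shown for any of the 5.

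Mice of the same group differed from each other, and the members did not rank them alike. In ZT1 LPS, Fcer1g, Fcgr3, Fcgr4, Fcgr2b and Fcgrt each had mice 1 and 4 as the highest of the group, whereas for Fcgr1 mouse 3 was highest and mice 1 and 4 came next. In ZT13 LPS, mice 3 and 4 were highest for Fcgr4 and Fcer1g, and for Fcgr3 it was mouse 5, the lowest mouse for Fcgr1, Fcgr2b, Fcgr4 and Fcer1g. Over deviations of log2(CPM + 0.5) from the 4 group means in the 16 samples, Fcer1g and Fcgr4 had a Pearson r of 0.90, Fcer1g and Fcgr2b 0.73, and Fcer1g and Fcgr3 0.23. Fcgr3 and Fcgr4 had an r of 0.09. The points share their library, and the values are a description.

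Markers of the cells that could carry the receptors were summed in each sample. Counts of calls with LPS in each list are to be read beside the shares over all genes tested. These were 11.1% higher and 5.15% lower at ZT1, and 19.2% and 9.40% at ZT13. Some genes of these lists and of those further on would not have passed the filter on the PBS mice alone. They are named where they were called higher, because the filter had then let them in through LPS mice, and such a call is not counted as further evidence beyond the levels. Homeostatic microglia were represented by 11 genes, with Csf1r the most abundant, and their sum was 273.3, 245.3 and 248.3 CPM in ZT1 PBS and 352.4, 243.9, 345.1, 408.8 and 382 CPM in ZT1 LPS. It was 259.9, 238.9 and 245.4 CPM in ZT13 PBS and 337.9, 354, 302.6, 302.3 and 337.4 CPM in ZT13 LPS. Mouse 2 of ZT1 LPS, the lowest mouse of its group for Fcgr1, Fcgr3, Fcgr4, Fcer1g and Fcgrt, was thus also at the PBS level of this sum. At both times 5 of the 11 genes were called higher with LPS, among them Csf1r, Cx3cr1 and Tmem119, and 2 were called lower at ZT1 and 3 at ZT13, P2ry12 and Siglech at both times and Gpr34 at ZT13. None of the 11 was at 0 in any group, and on the log2 scale their median difference was 0.10 at ZT1 and 0.30 at ZT13, beside 0.040 and 0.050 over all genes tested.

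The pan-myeloid list held 10 genes, and C1qc was the most abundant over all samples. Its sum was 134.6, 123 and 134.3 CPM in ZT1 PBS and 486.6, 284.7, 396.6, 491 and 388.1 CPM in ZT1 LPS. It was 134.5, 131.7 and 135.2 CPM in ZT13 PBS and 475.4, 505, 507.5, 499.4 and 450.7 CPM in ZT13 LPS. All 10 genes rose at both times, with a median log2 fold change of 1.47 and 1.63, and Itgam, a subunit of the complement receptor that also takes part in phagocytosis, rose most, by 2.22 and 2.75. The log2 rises of Fcgr1, Fcgr2b and Fcer1g were above the median of this list at both times, as were those of Fcgr3.

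Neutrophil markers were close to absent in PBS mice. The sum of the 10 genes was 4.98, 4.89 and 4.59 CPM in ZT1 PBS and 76.6, 15.1, 31.9, 71.3 and 21.2 CPM in ZT1 LPS. It was 3.95, 3.61 and 4.75 CPM in ZT13 PBS and 92.7, 80.1, 134.3, 133.2 and 52.0 CPM in ZT13 LPS. The mice ranked as they did for Fcer1g and Fcgr4 at the ends of both groups, with mice 1 and 4 high and mice 2 and 5 low in ZT1 LPS, and mice 3 and 4 high and mouse 5 low in ZT13 LPS. Lists further on that are not of neutrophils had the same ends. They were the activating kinases and adaptors, the other ITAM chains and the list with B2m. The sum of the activating kinases and adaptors was 318.8, 242.5, 257.5, 315.7 and 251.3 CPM in ZT1 LPS. In ZT13 LPS it was 323.2, 333.6, 356.9, 352 and 287.3 CPM. The pan-myeloid sum had these ends in ZT1 LPS. S100a9, an alarmin of neutrophils, was the most abundant of the neutrophil list over all samples, and in PBS mice the larger share came from Csf3r, the receptor of G-CSF, at 3.97 and 3.43 CPM. Ly6g and Cxcr2 were at 0 in all PBS mice, and Ly6g reached no more than 0.152 CPM with LPS. Cxcr2, a chemokine receptor, was at least 77-fold higher with LPS at ZT1 and at least 237-fold higher at ZT13, against a floor of 3 reads over the PBS group. Of the 7 genes tested, 5 were called higher at ZT1 and 7 at ZT13, but 6 of the 7, S100a8, S100a9, Retnlg, Mmp8, Cxcr2 and Ngp, would not have passed on PBS mice alone. The other, Csf3r, was called at ZT13 (adjusted p = 4.9e-07) and not at ZT1 (adjusted p = 0.054). What part the cells behind these markers had in the levels of Fcer1g and Fcgr4 was not tested.

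**Figure D2:**
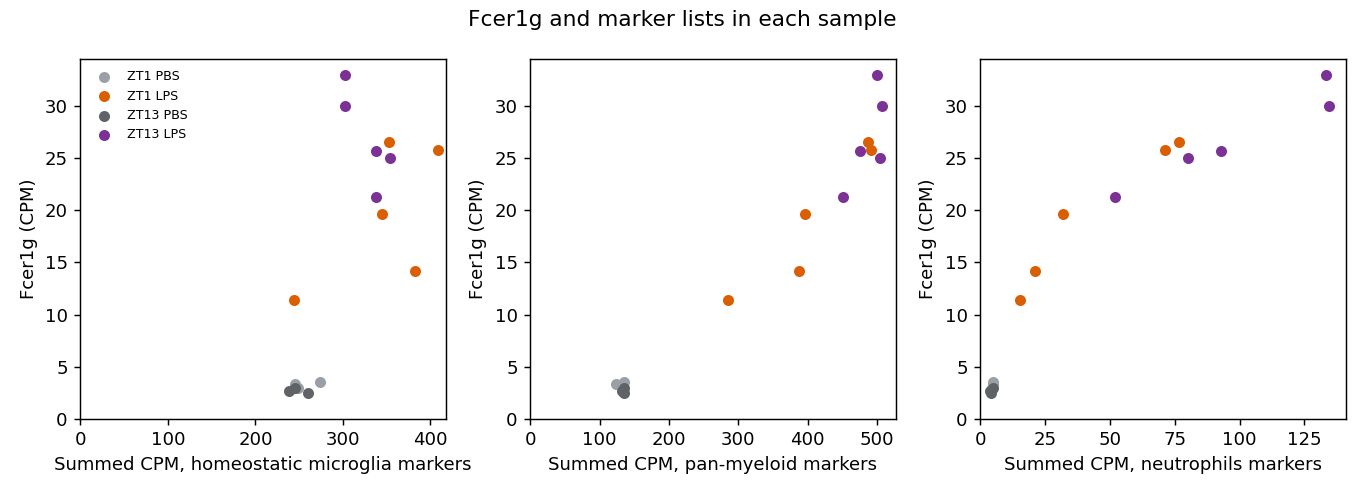
CPM of Fcer1g (vertical) against the summed CPM of the homeostatic microglia, pan-myeloid and neutrophil markers (horizontal) in each of the 16 mice, coloured by group. The highest Fcer1g level, 33.0 CPM, and the lowest of the LPS mice, 11.4 CPM, belong to mice with neutrophil sums of 133.2 and 15.1 CPM. The pan-myeloid sums of these mice were 499.4 and 284.7 CPM, and their microglial sums 302.3 and 243.9 CPM.

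Monocyte markers summed to 83.5 to 112 CPM in PBS mice, 94.2 to 185 CPM in ZT1 LPS and 141 to 171 CPM in ZT13 LPS, most of it from Fn1, which other cells of the cortex also express. Chil3, a secreted chitinase-like protein of monocytes and neutrophils, was at 4.27 CPM in ZT1 LPS and 15.8 CPM in ZT13 LPS, against 0.108 and 0.0149 CPM in PBS. All 6 genes were tested, and 5 were called higher at ZT1 and 6 at ZT13. The count at ZT1 fell to 1 with quantile normalization. The 5 called at ZT1, Ly6c2, Ccr2, Chil3, Plac8 and Ms4a4c, would not have passed on PBS mice alone, and Fn1, the other, was called at ZT13 alone. Markers of perivascular macrophages summed to 31.7 to 39.7 CPM in PBS mice, 68.7 to 110 CPM in ZT1 LPS and 110 to 146 CPM in ZT13 LPS, with Stab1 the most abundant. Of the 6 tested of 8, 4 were called higher at ZT1 and 3 at ZT13, Cd163, F13a1 and Stab1 at both times. The other call at ZT1 was Cbr2, which like Lyve1 would not have passed on PBS mice alone. Mrc1, the mannose receptor of these macrophages, had log2 differences of -0.06 and 0.16 and was not called.

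Lymphoid and other blood cells carry some Fc receptors too. No marker of B and plasma cells, of which 6 were listed, or of mast cells and basophils, of which 5 were listed, passed the filter, and Fcer1a, the IgE-binding chain of the mast cell receptor, was at 0 in all 16 samples. Of 9 markers of NK and T cells, 2 were tested and Gzma, a granzyme, was called higher at both times. Gzma was at 0 in all PBS mice and at 0.509 CPM in ZT1 LPS and 1.34 CPM in ZT13 LPS, at least 10.9-fold and 31.5-fold higher, so it was tested because of the LPS mice alone. Its call at ZT1 (adjusted p = 0.041) was also lost with a pseudocount of 1, with quantile normalization and with no intensity trend, among others. The call at ZT13 was lost with all genes above 0 CPM and with genes of at least 5 CPM. Of 6 markers of platelets and erythrocytes, 4 were tested, none was called at ZT1, where 5716 genes of all had an unadjusted limma p under 0.05, and Itga2b was called higher at ZT13 (adjusted p = 0.02). That call was lost with quantile normalization, with all genes above 0 CPM, with genes of at least 5 CPM and with a term for the replicate number.

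Other cells of the cortex moved as well. Of 8 endothelial markers 6 were called higher and 1 lower at ZT1, and 7 higher at ZT13, with sums of 202 to 245.2 CPM in PBS mice and 329 to 425.4 CPM in LPS mice. Of 6 neuronal markers none was called at ZT1 and 3 were called lower at ZT13. Of 5 astrocyte markers 3 were called higher at both times, and 1 was called lower at ZT13. Of 4 oligodendrocyte markers 1 was called lower at ZT1 and 3 at ZT13. With all genes above 0 CPM, where the calls over all genes at ZT1 fell from 3061 to 1605, the calls at ZT1 in either direction fell to 3 for homeostatic microglia, 2 for perivascular macrophages, 3 for monocytes, 3 for neutrophils and 1 for astrocytes.

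Downstream of the activating receptors, Src-family kinases phosphorylate the ITAM, and Syk, adaptors and phospholipase C gamma pass the signal on. Of the 18 genes listed for this arm, all 18 were tested, and 13 were called higher with LPS at ZT1 and 16 at ZT13. The shares of all genes tested that were called higher were 11.1% and 19.2%, for this list and those that follow. Fgr, Lat2 and Btk would not have passed on PBS mice alone, and of the other 15 genes 10 were called higher at ZT1 and 13 at ZT13. Fgr, a Src-family kinase of myeloid cells, was at 0.124 CPM in ZT1 PBS and 3.56 CPM in ZT1 LPS, and at 0.0308 and 8.77 CPM at ZT13. Rac2, the Rac GTPase of blood cells, rose from 1.52 to 14.3 CPM and from 1.42 to 25.7 CPM. Lcp2, the adaptor that Syk phosphorylates, rose from 2.15 to 8.21 CPM and from 2.44 to 11.2 CPM. Fyn, a Src-family kinase that neurons also express and the most abundant gene of the list, had log2 differences of -0.08 and -0.06 and was not called. Syk itself rose by 0.87 (adjusted p = 0.037) and by 1.82 (adjusted p = 3.4e-07).

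The inhibitory arm works through phosphatases that the ITIM of Fcgr2b recruits. Of 8 genes listed and tested, 2 were called higher at ZT1 and 8 at ZT13. At ZT1 the number became 6 with a single fit of all samples and 4 with sample quality weights. The interaction was called for none of the 8, so a difference between the times was not shown. With sample quality weights it was called for 1 of them. Inpp5d, the lipid phosphatase that acts most directly behind Fcgr2b, rose from 11.1 to 22.4 CPM at ZT1 (adjusted p = 0.0004) and from 13.7 to 27.6 CPM at ZT13 (adjusted p = 4.9e-07). Ptpn6, a tyrosine phosphatase of blood cells, rose from 3.21 to 11.8 CPM and from 2.31 to 17.1 CPM. Dok1 and Dok2, adaptors that restrain Ras, would not have passed on PBS mice alone, and had log2 rises of 1.06 and 0.96 at ZT13. The other 6 genes were all called there. Ptpn11, the most abundant gene of the list, was at 174 and 193 CPM at ZT1 and at 180 and 196 CPM at ZT13, and was called at ZT13 with a log2 rise of 0.13.

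Of 14 other genes listed as inhibitory receptors, 12 were tested, 8 were called higher and 1 lower at ZT1, and 9 higher and 2 lower at ZT13. The list held Siglech, which has no ITIM and signals through Tyrobp, and the lower call at ZT1 and 1 of the 2 at ZT13 were of that gene. Pirb, Lilrb4a, Cd300a, Cd300lf, Clec4a2 and Siglece would not have passed on PBS mice alone, and of the other 6 genes 3 were called higher at each time. Pirb, which binds MHC class I molecules, rose from 0.450 to 7.52 CPM at ZT1 and from 0.346 to 15.7 CPM at ZT13. Cd300lf, a receptor for lipids, rose from 0.265 to 3.86 CPM and from 0.289 to 9.75 CPM, and Siglece, which binds sialic acid, from 0.458 to 3.81 CPM and from 0.619 to 8.43 CPM. Lilrb4a rose from 0.234 to 3.46 CPM and from 0.289 to 6.04 CPM. Siglech, a marker of microglia in the homeostatic state, fell from 7 to 1.78 CPM and from 6.52 to 0.833 CPM. Sirpa, the receptor of the signal that spares healthy cells from phagocytosis and the most abundant of the list, was at 409 and 368 CPM at ZT1 and was lowered at ZT13, from 405 to 356 CPM (adjusted p = 0.00052).

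Of 8 other receptors that use the gamma chain, 4 were tested, and 2 were called higher at ZT1 and 3 at ZT13. The called genes, Clec4e, Clec4d and Pira2, would not have passed on PBS mice alone, so these counts favour higher calls. The count at ZT1 fell to 1 with a pseudocount of 1 or with no intensity trend, and to 0 with quantile normalization. Clec4e, which senses mycobacterial glycolipid and dead cells, was at 0 in all PBS mice and at 0.704 and 1.92 CPM with LPS, at least 15.1-fold higher at ZT1 and 45.1-fold at ZT13. Clec4d, its partner, was at least 13.1-fold and 29.5-fold higher, also against PBS mice at 0. Pira2, also at 0 in all PBS mice, was called at ZT13 and was at least 27.4-fold higher there. Oscar, the most abundant of the 4 by the mean over all samples, was at 0.938 and 1.46 CPM at ZT1 and was not called. Of 9 genes of other ITAM chains 2 were tested, and Tyrobp, the chain that Trem2 uses, was called higher at both times, from 4.01 to 10 CPM and from 3.60 to 14.5 CPM.

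Of 11 other Fc receptors and Fc receptor-like genes, 3 were tested. Trim21, which binds IgG in the cytosol, rose from 1.28 to 3.05 CPM at ZT1 (adjusted p = 0.00055) and from 0.843 to 3.02 CPM at ZT13 (adjusted p = 0.00018). Fcrls, a microglial gene of the Fc receptor-like family, was at 13.9 and 10.2 CPM at ZT1 without being called and fell from 12.5 to 5.64 CPM at ZT13 (adjusted p = 0.0093). The calls in this list at ZT13 fell from 2 to 1 with all genes above 0 CPM, with genes of at least 5 CPM and with no intensity trend. Fcgrt pairs with B2m, the light chain of MHC class I, and that gene rose from 26.7 to 105 CPM and from 26.5 to 123 CPM while Fcgrt was not called. Of the 5 genes listed with B2m, 3 were tested and 2 called higher at both times, the other being Hfe, which takes part in iron sensing, with 2.19 to 5.81 CPM and 3.08 to 6.49 CPM.

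Of 13 genes listed as ligands, among them the IgG heavy chains and the pentraxins, 3 passed the filter. The list also held Ighm, Ighd, Igha and Ighe, whose products are not ligands of Fc gamma receptors. Ighg1 was at 0 in all 16 samples, and Ighg2b and Ighg3 reached no more than 0.0443 and 0.0896 CPM in any of them. Ighg2c was at 1.64 and 0.973 CPM at ZT1 and 2.11 and 1.28 CPM at ZT13, and was called lower at ZT13 (log2 -0.53, adjusted p = 0.034). Ighm fell from 12.7 to 6.10 CPM at ZT1 and from 14.3 to 2.80 CPM at ZT13, which is no fall of such a ligand. Ptx3, a pentraxin made locally in inflammation, was at 0.836 and 1.08 CPM in LPS mice and at 0.160 and 0.134 CPM in PBS mice, and passed the filter because of the former.

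Of 7 transcription factors known to act on Fc receptor genes, all 7 were tested and 6 were called higher at both times, with a median of 0.87 and 1.18. Spi1 (PU.1), the lineage factor of myeloid cells, rose from 2.93 to 9.79 CPM at ZT1 (adjusted p = 0.00035) and from 2.43 to 14.4 CPM at ZT13 (adjusted p = 1.1e-08). Irf1 rose from 5.23 to 11.3 CPM and from 3.90 to 11.0 CPM, and Irf8 from 5.11 to 9.77 CPM and from 4.22 to 10.2 CPM.

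Uptake through Fc receptors needs actin at the phagocytic cup. Of 15 genes listed for it and tested, 12 were called higher and 1 lower at each time. Was would not have passed on PBS mice alone, and of the other 14 genes 11 were called higher at each time. Myo1f, a myosin of immune cells, rose from 2.51 to 9.56 CPM at ZT1 and from 2.61 to 14.2 CPM at ZT13, and Arpc1b, a subunit of the actin-branching complex, from 12.5 to 38.1 CPM and from 12.6 to 51.6 CPM. Dock2, an activator of Rac in blood cells, rose from 5.36 to 16 CPM and from 5.12 to 20.9 CPM, and Was, which switches that complex on, from 0.739 to 2.96 CPM and from 0.932 to 4.16 CPM. Cfl1, the most abundant of the list, rose by 0.12 and 0.11 on the log2 scale. Marcksl1 fell by 0.24 and 0.39 on that scale.

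Across these lists and those of cell types no gene was called between ZT13 LPS and ZT1 LPS. This did not hold under every setting: a single fit of all samples and sample quality weights each called genes of several lists, among them 2 of the neutrophil, 2 of the ITIM and 2 of the endothelial list. Between ZT13 PBS and ZT1 PBS, Slc2a1 was called higher and Cldn5 and Flt1 lower, all of the endothelial list, and no other. These 3 calls were lost with all genes above 0 CPM and with no intensity trend. The interaction was called for Pecam1, which is on both the ITIM and the endothelial list, and for the endothelial genes Cldn5, Cdh5 and Flt1. The number of endothelial genes called fell from 4 to 0 with all genes above 0 CPM or with no intensity trend, and to 1 with quantile normalization. With a term for the replicate number it fell to 2, and the call of Pecam1 was lost.

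The genes that followed each member most closely over the 16 samples were found by the Pearson r of log2(CPM + 0.5). LPS and PBS mice form separate clusters on this scale, so the r serves as a measure of likeness and not as a relation among mice. Fcgr1 was most like Spp1 (r = 0.993, n = 16), a secreted phosphoprotein of activated microglia, and Serping1 (0.988), an inhibitor of the first complement component. Fcgr2b was most like Saa3 (0.994), an acute-phase gene, and Fcgr3 was most like C3 (0.988) and C1qb (0.986), both of complement. Fcgr4 was most like Psmb8 (0.996), of the immunoproteasome, and H2-D1 (0.996), and Fcer1g was most like Fcgr4 (0.995) and Tlr2 (0.994). Fcgrt was most like Kntc1 with 0.882.

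By deviations from the group means, which leave the group differences out, other genes came first. The 16 deviations hold 12 residual degrees of freedom. Each r named is among the largest over the 18859 genes tested, so such a search favours high values, and none was tested. Fcer1g was then most like S100a8 (r = 0.968, n = 16) and S100a9 (0.966), and Fcgr4 most like Mmp8 (0.951), Rasgrp4 (0.95) and Clec4e (0.939). S100a8 and S100a9 encode cytosolic proteins of neutrophils, and Mmp8 an enzyme of their granules. Next for Fcgr4 came Slfn4 (0.937) and B2m (0.933), and B2m, the light chain of MHC class I, is not on the neutrophil list. Next for Fcer1g came Lilr4b (0.951), Cxcr2 (0.947) and Gm1966 (0.946), of which Cxcr2 is on that list. Which cells these transcripts came from was not tested. For Fcgr2b the first were Cdca3 (0.943) and Gsn (0.940), for Fcgr3 Cycs (0.885), and for Fcgr1 Gm29050 (0.897), with Spp1 (0.875) close behind. For Fcgrt the first was Pltp (0.951), a phospholipid transfer protein.

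Fcgr2b, Fcgr4, Fcgr3 and Fcer1g lie close together on chromosome 1 of GRCm38. Fcgr2b (ENSMUSG00000026656) is at chr1:170958617-170976547 on the minus strand and Fcgr4 (ENSMUSG00000059089) at chr1:171018920-171029761 on the plus strand. Fcgr3 (ENSMUSG00000059498) is at chr1:171051174-171064935 and Fcer1g (ENSMUSG00000058715) at chr1:171229572-171234365, both on the minus strand. Fcgr1 (ENSMUSG00000015947) is at chr3:96282909-96293969 and Fcgrt (ENSMUSG00000003420) at chr7:45092990-45103851, both on the minus strand. Of the 15 other tested genes within 100 kb of the 4 genes on chromosome 1, 2 were called higher with LPS at ZT1 and none lower, and at ZT13 3 were called higher and 1 lower, beside the 11.1% and 19.2% of all genes tested that were called higher. Their log2 fold changes lay between -0.29 and 0.27 at ZT1 and between -0.23 and 0.23 at ZT13, all smaller than those of the 4 receptor and chain genes. Atf6, a sensor of unfolded protein, and Ppox, a heme synthesis enzyme, were called higher at both times.

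**Figure D3:**
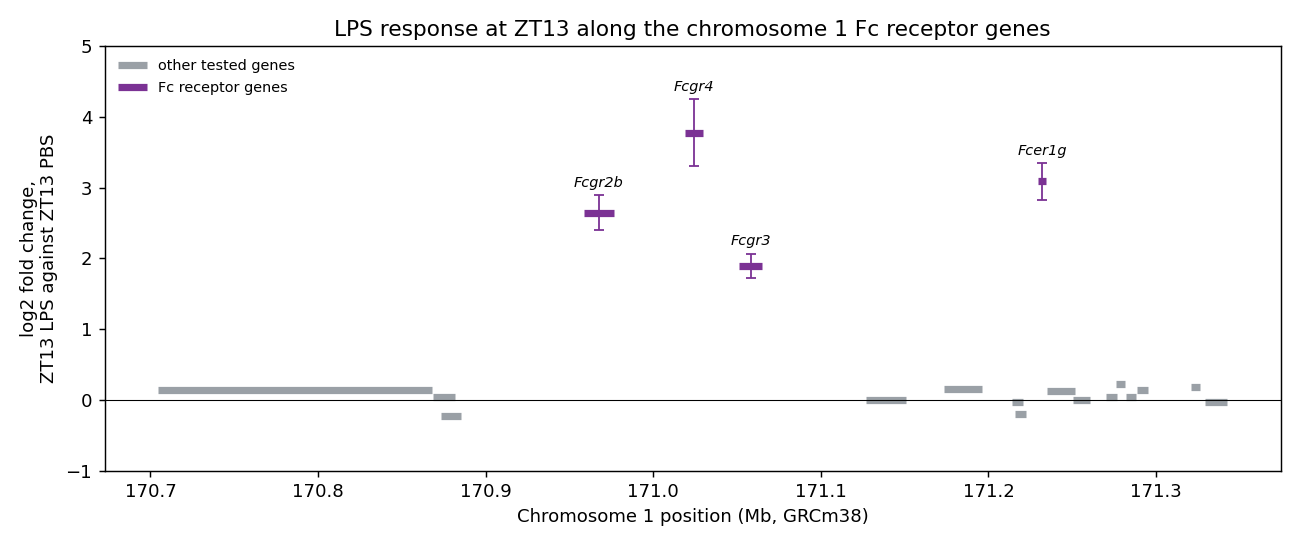
The log2 fold change of ZT13 LPS against ZT13 PBS (vertical) for each tested gene within 100 kb of Fcgr2b, Fcgr4, Fcgr3 or Fcer1g, drawn along chromosome 1 in Mb (horizontal), with 95% intervals for these 4. The 4 lie between 1.90 and 3.78 and the 15 neighbours between -0.23 and 0.23. The value of 3.78 is that of Fcgr4, which passed the filter through the LPS mice alone. Its size and interval depend on the pseudocount, and it was 5.66 with a pseudocount of 0.1 and 2.93 with 1.

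Around Fcgr1, 18 neighbours were tested, many of them histone genes, of which 1 was called higher at ZT1, and 4 higher and 1 lower at ZT13. Around Fcgrt, 17 were tested, and 3 were called higher at ZT1, and 8 higher and 1 lower at ZT13, to be read beside the same shares of all genes. Rras, a small GTPase, changed most among the latter, by 1.13 and 1.29. Genes annotated over Fcgr2b, Fcgr3, Fcgr4 and Fcgrt were at 0 or at most at 0.0474 CPM, and whether the counting was strand-specific is not stated.

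The promoters of members that rose together were read from RefSeq, build GRCm38.p6, where all 6 members had an entry and Fcgr3 had 2. They are shown because the receptors of the activating arm share a short word close to their start. After the promoter sequences had been looked at, 4 motifs were searched on both strands in the 250 bases before and 50 after each start, and in all 32851 promoters of the same length. GAGGAA, the core of many PU.1 sites, was in the promoters of Fcgr1, Fcgr3 and Fcgr4 and in 28.3% of all promoters. It began 55 bases before the start of Fcgr1, 15 or 6 bases before those of Fcgr3, and 22 bases before that of Fcgr4, on the opposite strand in each. TTCNNNGAA, a palindrome, was in Fcgr1 alone among the members and in 8.3% of promoters. GAAA followed after 2 bases by another GAAA, an interferon response form, was in Fcgr4 alone and in 3.44% of promoters, and TGACGTCA, the cyclic AMP response form, was in no member and in 1.79%. None of the 4 was found in these stretches of Fcgr2b, Fcer1g and Fcgrt. The 200 bases before the start are given 5′ to 3′ on the strand of the gene, from chr3:96293970-96294169 (minus strand), chr1:171059395-171059594 (minus strand) and chr1:171018726-171018925 (plus strand). Capitals mark GAGGAA, read here as TTCCTC, and TTCNNNGAA. A match is a description of the letters only.
Fcgr1: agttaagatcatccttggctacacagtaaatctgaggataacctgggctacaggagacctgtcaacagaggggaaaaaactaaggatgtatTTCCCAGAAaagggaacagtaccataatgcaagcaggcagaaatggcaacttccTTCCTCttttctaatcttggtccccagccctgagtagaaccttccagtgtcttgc
Fcgr3: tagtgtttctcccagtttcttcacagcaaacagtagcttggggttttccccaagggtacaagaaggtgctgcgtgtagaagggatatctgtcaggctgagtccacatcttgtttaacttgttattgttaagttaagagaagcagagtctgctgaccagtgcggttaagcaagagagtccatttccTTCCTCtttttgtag
Fcgr4: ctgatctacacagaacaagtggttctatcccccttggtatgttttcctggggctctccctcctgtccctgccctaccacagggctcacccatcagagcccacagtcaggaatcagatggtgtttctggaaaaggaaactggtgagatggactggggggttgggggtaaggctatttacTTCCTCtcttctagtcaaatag

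Fcgr2b and Fcgr3 carry opposite signals and yet share part of their coding sequence, which limits how well reads of one can be told from reads of the other. In GENCODE M21 transcripts they had 166 stretches of 50 bases in common, 2.92% of those of Fcgr2b and 9.58% of those of Fcgr3, and no other pair of members shared any. Read back as reads, their values were whole numbers in 1 of 16 samples each, within 0.05 reads, whereas those of Fcgr1, Fcgr4, Fcer1g and Fcgrt were whole in 16 of 16. How reads that fit both genes were divided is not stated, so the levels of Fcgr2b and Fcgr3 carry an uncertainty that was not measured. The longest identical run in coding sequence was 129 bases, coding bases 278 to 406 of Fcgr2b-201 (chr1:170966674-170968081, minus strand) and 263 to 391 of Fcgr3-201 (chr1:171054167-171057792, minus strand), each spanning an intron. It is shown because a read that lies within it belongs equally to the inhibitory and the activating receptor.
Fcgr2b and Fcgr3: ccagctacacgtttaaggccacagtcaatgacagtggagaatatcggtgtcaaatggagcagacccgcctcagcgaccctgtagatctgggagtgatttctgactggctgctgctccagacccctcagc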

How the data were processed

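The authors deposited 1 table of CPM for 16 cortex samples, made per the labels with bcl2fastq and DRAGEN 4.0.3-8 on GRCm38. Of its 55774 lines, 287 repeated a gene and were removed. The step between the lowest values was read as 1 read. A floor of 3 reads came to 0.103 to 0.148 CPM. Genes with 1 CPM or more in at least 3 samples, 18859 in all, were fitted as log2(CPM + 0.5) with limma 3.58.1 (R 4.3.3, intensity trend), each pairwise comparison on its 2 groups and the interaction on 4 group means. P-values were adjusted by Benjamini-Hochberg over all 18859 genes, and a gene was called at an adjusted p under 0.05. Exact permutation tests were two-sided (scipy 1.17.1) and unadjusted. Tables were handled in Python 3.11.15 with numpy 2.4.6 and pandas 2.3.3, and figures drawn with matplotlib 3.10.9.

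The members and the 23 lists were chosen with earlier results of these data known. Of each pathway list, the genes named are the called ones with the largest log2 fold change at ZT13, up to 4 higher and 2 lower, and the one of highest mean CPM, though not every such gene is named, and some others were named after their values were seen. Tested list genes with 1 CPM or more in fewer than 3 of the 6 PBS mice were marked, after the calls were known, as genes that PBS mice alone would not have let through the filter. For likeness the first 5 genes by r were taken for each member, and the text names those nearest the top. Each fit was repeated with pseudocounts of 0.1 and 1, with other filters, with quantile normalization or median-of-ratios factors, with all samples fitted at once, without the intensity trend, with sample quality weights, with a term for the replicate number, and without each mouse in turn. Exact tests were repeated with pseudocounts of 0.1 and 1, chosen after the data had been seen.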

Additional observations from a re-analysis of the deposited data

Results flagged for a closer look

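In 48 groups of 5 mice, over the members, the ratios, Gfap, Lcn2 and the marker sums, 3 values stood far from the rest of their group, and chance alone gives such a value in about 5% of groups. Fcgr1 was at 5.73 CPM and Fcgrt at 8.86 CPM in mouse 2 of ZT1 LPS, each far below the other mice of that group. The same mouse had the lowest microglial, pan-myeloid and neutrophil sums of its group, 243.9, 284.7 and 15.1 CPM. It also had the highest platelet and erythrocyte sum of all 16 samples, 27.6 CPM, and the part of these in its receptor levels was not tested. The summed CPM of the astrocyte markers was 4837 in mouse 1 of ZT13 LPS, far above the other mice of that group and close to a ZT13 PBS mouse at 4842.

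The LPS response differed between ZT13 and ZT1, by the limma interaction, for Cldn5 (1.36 on the log2 scale, adjusted p = 0.013), Cdh5 (0.67, adjusted p = 0.036), Pecam1 (0.78, adjusted p = 0.041) and Flt1 (0.56, adjusted p = 0.044), all genes of endothelial cells. The PBS mice differed between the times as well, by -1.095 for Cldn5 (28 CPM at ZT1 and 13 CPM at ZT13, adjusted p = 0.0085) and -0.487 for Flt1 (adjusted p = 0.013), both called, and by -0.329 for Cdh5 and -0.362 for Pecam1. Between the LPS groups the differences were 0.267 for Cldn5, 0.072 for Flt1, 0.342 for Cdh5 and 0.422 for Pecam1, and none was called. The interaction of Cldn5 and Flt1 was thus made up more of PBS than of LPS levels. The interaction calls depended on the settings, and the number of endothelial genes called fell from 4 to 0 with all genes above 0 CPM or with no intensity trend, and to 1 with quantile normalization. With a term for the replicate number it fell to 2, and the call of Pecam1 was lost. The PBS calls were lost with all genes above 0 CPM and with no intensity trend. No Fc receptor gene was among them.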

How the results depend on the processing

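Fcgr1, Fcgr2b, Fcgr3 and Fcer1g were called higher with LPS at both times in every alternative, also without any 1 mouse, and neither they nor Fcgrt were called between ZT13 and ZT1 or for the interaction in any. Of the log2 values of these 5 genes under alternatives, 2 gained a call and 13 changed sign. The gains were for Fcgrt at ZT1, 0.395 with sample quality weights (adjusted p = 0.034) and 0.458 without ZT1 LPS mouse 2 (adjusted p = 0.0087). None of the values that changed sign was called. For ZT13 LPS against ZT1 LPS they were Fcgr1 at -0.0049 with quantile normalization, -0.025 with sample quality weights and -0.083 without ZT1 LPS mouse 2, with a range of -0.083 to 0.110 over single mice left out. For ZT13 PBS against ZT1 PBS they were Fcgr3 at -0.00025 with sample quality weights, -0.158 without ZT1 PBS mouse 1 and -0.0049 without ZT13 PBS mouse 2, Fcgr1 at 0.151 without ZT1 PBS mouse 2 and 0.060 without ZT13 PBS mouse 3, and Fcgrt at -0.0033 without ZT1 PBS mouse 3. Over single mice left out these ranged from -0.158 to 0.176 for Fcgr3, from -0.230 to 0.151 for Fcgr1 and from -0.0033 to 0.186 for Fcgrt. For the interaction they were Fcgr1 at -0.110 without ZT1 PBS mouse 2, -0.035 without ZT1 LPS mouse 2 and -0.018 without ZT13 PBS mouse 3, and Fcgr3 at -0.010 without ZT1 PBS mouse 3, with ranges of -0.110 to 0.271 for Fcgr1 and -0.010 to 0.323 for Fcgr3. The exact tests and the list counts were not run without single mice, nor was the ratio.

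The activating to inhibitory ratio depended on the numerator by construction. With Fcgr3 alone the log2 means were 1.617 in ZT1 PBS, 0.911 in ZT1 LPS, 1.502 in ZT13 PBS and 0.568 in ZT13 LPS. With Fcgr4 alone they were -4.471 in ZT1 PBS, -1.327 in ZT1 LPS and -1.184 in ZT13 LPS, and ZT13 PBS gave no value because 1 mouse was at 0. The ZT1 PBS value rests on 3 reads or fewer of Fcgr4 in each mouse, so the size of its distance from the LPS values is not read. The direction at ZT1 was opposite to that with Fcgr3 alone. The highest PBS mouse was at -3.594 and the lowest LPS mouse at -1.610, and the difference was not tested.

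List counts below are genes called in either direction, first as in the text and then under the alternative, and the cause of the moves was not tested. With all genes with CPM above 0 in at least 1 sample, the counts for LPS against PBS at ZT1 went from 2 to 0 for receptors that use the Fc receptor gamma chain, 1 to 2 for other ITAM chains, 2 to 1 for the MHC class I-like light chain and relatives of the neonatal receptor, 2 to 1 for ligands of Fc gamma receptors, 7 to 3 for homeostatic microglia, 4 to 2 for perivascular macrophages, 5 to 3 for monocytes, 5 to 3 for neutrophils, 1 to 0 for NK and T cells and 3 to 1 for astrocytes. At ZT13 they went from 1 to 3 for other ITAM chains, 2 to 1 for other Fc receptors and Fc receptor-like genes, 0 to 1 for B and plasma cells, 1 to 0 for NK and T cells and 1 to 0 for platelets and erythrocytes. For ZT13 PBS against ZT1 PBS endothelial cells went from 3 to 0, and for the interaction inhibitory ITIM receptors went from 1 to 0 and endothelial cells from 4 to 0.

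With genes that reached a CPM of 5 or more in 3 or more samples, the counts at ZT1 went from 2 to 0 for receptors that use the Fc receptor gamma chain, 1 to 0 for other Fc receptors and Fc receptor-like genes, 2 to 1 for ligands of Fc gamma receptors, 5 to 1 for monocytes and 1 to 0 for NK and T cells. At ZT13 they went from 3 to 0 for receptors that use the Fc receptor gamma chain, 2 to 1 for other Fc receptors and Fc receptor-like genes, 3 to 1 for ligands of Fc gamma receptors, 6 to 2 for monocytes, 1 to 0 for NK and T cells and 1 to 0 for platelets and erythrocytes. With a pseudocount of 1 they went at ZT1 from 2 to 1 for receptors that use the Fc receptor gamma chain and 1 to 0 for NK and T cells. With median-of-ratios factors oligodendrocytes went from 1 to 2 at ZT1 and cortical neurons from 3 to 5 at ZT13.

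With quantile normalization the counts at ZT1 went from 2 to 0 for receptors that use the Fc receptor gamma chain, 5 to 1 for monocytes, 1 to 0 for NK and T cells and 1 to 2 for oligodendrocytes. At ZT13 platelets and erythrocytes went from 1 to 0, and for the interaction inhibitory ITIM receptors went from 1 to 0 and endothelial cells from 4 to 1. With no intensity trend, receptors that use the Fc receptor gamma chain went from 2 to 1 at ZT1, ligands of Fc gamma receptors from 2 to 1 and NK and T cells from 1 to 0. At ZT13 other Fc receptors and Fc receptor-like genes went from 2 to 1. For ZT13 PBS against ZT1 PBS endothelial cells went from 3 to 0, and for the interaction inhibitory ITIM receptors went from 1 to 0 and endothelial cells from 4 to 0.

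With a single fit of all 16 samples, inhibitory phosphatases and adaptors went from 2 to 6 at ZT1 and NK and T cells from 1 to 0. For ZT13 LPS against ZT1 LPS, where no list gene was called before, this fit called 1 of the activating kinases and adaptors, 2 inhibitory ITIM receptors, 1 of the receptors that use the Fc receptor gamma chain, 2 of the phagocytic cup, 1 of homeostatic microglia, 1 of perivascular macrophages, 1 of monocytes, 2 of neutrophils and 2 of endothelial cells. With sample quality weights, inhibitory phosphatases and adaptors went from 2 to 4 and oligodendrocytes from 1 to 2 at ZT1. These weights called for ZT13 LPS against ZT1 LPS 2 activating kinases and adaptors, 2 inhibitory ITIM receptors, 1 of the receptors that use the Fc receptor gamma chain, 1 of the ligands of Fc gamma receptors, 1 of the transcription factors of Fc receptor genes, 2 of the phagocytic cup, 1 of homeostatic microglia, 1 of perivascular macrophages, 1 of monocytes, 2 of neutrophils and 2 of endothelial cells. For the interaction they moved inhibitory phosphatases and adaptors from 0 to 1, inhibitory ITIM receptors from 1 to 2, the phagocytic cup from 0 to 1, perivascular macrophages from 0 to 1 and neutrophils from 0 to 1.

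The number in the sample title was also fitted as a replicate block, since the labels do not say whether samples of the same number belong together. Deviations of samples with the same number correlated between -0.199 and 0.328. With the replicate block no call of a member changed. Other Fc receptors and Fc receptor-like genes went from 1 to 2 at ZT1 and NK and T cells from 1 to 0, and platelets and erythrocytes went from 1 to 0 at ZT13. For ZT13 LPS against ZT1 LPS neutrophils went from 0 to 1, and for the interaction inhibitory ITIM receptors went from 1 to 0, neutrophils from 0 to 1 and endothelial cells from 4 to 2. All genes called between ZT13 PBS and ZT1 PBS went from 98 to 57.

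Counts over all genes moved as follows. For LPS against PBS at ZT1, 3061 genes were called, 1605 with all genes with CPM above 0, and 1767 to 3758 without single mice. At ZT13, 5401 were called, and 4329 to 5676 over all alternatives. For ZT13 LPS against ZT1 LPS, 4 were called, 1 with all genes with CPM above 0, 122 with a single fit, 225 with sample quality weights, 0 with no intensity trend, and 0 to 345 without single mice, the most without ZT1 LPS mouse 1. For ZT13 PBS against ZT1 PBS, 98 were called, 65 with all genes with CPM above 0, 158 with CPM of at least 5, 199 with quantile normalization, 43 with a single fit, 3 with no intensity trend, and 12 to 87 without single mice. For the interaction, 30 were called, 12 with all genes with CPM above 0, 124 with sample quality weights, 11 with no intensity trend, and 7 to 104 without single mice.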
